A study of Homo sapiens with 12 samples.

Results

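The proteasome genes are the genes for the subunits, assembly factors and regulators of the proteasome, the protease complex that breaks down ubiquitin-tagged proteins. They were followed in MDA-MB-231 cells, an established human breast cancer cell line, as rows of the count table whose symbol is PSM, a letter A to G and a digit, with at least 10 counts in at least 3 libraries. Of 26364 rows, 54 fit the pattern and 49 passed. These 49 were 44 proteasome genes, 4 antisense RNAs named after them (PSMA3-AS1, PSMD5-AS1, PSMD6-AS2 and PSMG3-AS1) and PSMC3IP, which encodes a recombination protein and no proteasome part. The antisense RNAs and PSMC3IP are counted apart below. The row nearest the threshold on the passing side was PSMD6-AS2, with 7 to 25 counts per library and at least 10 in 11 of them. The 5 rows that failed were PSMA8 and PSMB8-AS1, at 0 counts in all libraries, PSMB8 with 2 counts in total, PSMB9 with 3 and PSMB11 with 6.

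The series holds 12 RNA-seq libraries, 3 wells per group. The groups were DEX (dexamethasone, a synthetic glucocorticoid) at 1 µM with SH4-54, a small-molecule inhibitor designed against STAT3 and STAT5, at 8 µM; SH4-54 alone at 8 µM; DEX alone at 1 µM; and no drug. Treatment lasted 24 h, and no vehicle is named for the untreated wells. All wells hold 1 cell line and the labels give no separate cultures, so each p-value rests on well-to-well spread, which may be technical.

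The proteasome has a barrel-shaped core, the 20S particle. Its outer rings of alpha subunits (PSMA genes) form the gate, and its inner rings of beta subunits (PSMB genes) hold the proteolytic sites. The 19S regulatory particle caps the core: its ATPases (PSMC genes) unfold substrates, and its non-ATPase subunits (PSMD genes) bind, deubiquitinate and position them. Other proteins open the core without the cap (PSME genes), inhibit it in vitro (PSMF1) or help to assemble it (PSMG genes for the core, PSMD5, PSMD9 and PSMD10 for the base of the cap). In mammalian cells the transcription factor NRF1, encoded by NFE2L1, is known for raising most subunit genes together when proteasome activity falls short, by binding antioxidant response elements with small MAF partners. Interferon gamma is known for exchanging the catalytic beta subunits for the inducible PSMB8, PSMB9 and PSMB10 products.

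Promoter sequences were available for 38 of the 44 proteasome genes, in 46 entries, from RefSeq on GRCh38.p14, each running from 250 bases before to 50 after a transcript start. PSMD3 and PSMC4 are shown because they are the genes of the 19S particle's lid and ATPase ring that rose most with both compounds against DEX alone. PSMD2 is shown as the gene that fell most with DEX, and PSMG4 as the gene that rose most with it. All lie on the plus strand, at chr17:39980557-39980856 (PSMD3), chr19:39970915-39971214 (PSMC4), chr3:184298991-184299290 (PSMD2) and chr6:3258697-3258996 (PSMG4). Capitals mark matches, on either strand, to TTCNNNGAA, the letters of a STAT site, and TGACNNNGC, the core letters of an antioxidant response element.
PSMD3: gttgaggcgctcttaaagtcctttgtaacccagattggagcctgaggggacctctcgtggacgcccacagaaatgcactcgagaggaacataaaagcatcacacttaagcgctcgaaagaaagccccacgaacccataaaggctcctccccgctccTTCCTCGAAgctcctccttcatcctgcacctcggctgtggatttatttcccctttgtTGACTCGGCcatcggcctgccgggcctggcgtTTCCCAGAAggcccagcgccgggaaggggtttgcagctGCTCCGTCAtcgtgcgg
PSMC4: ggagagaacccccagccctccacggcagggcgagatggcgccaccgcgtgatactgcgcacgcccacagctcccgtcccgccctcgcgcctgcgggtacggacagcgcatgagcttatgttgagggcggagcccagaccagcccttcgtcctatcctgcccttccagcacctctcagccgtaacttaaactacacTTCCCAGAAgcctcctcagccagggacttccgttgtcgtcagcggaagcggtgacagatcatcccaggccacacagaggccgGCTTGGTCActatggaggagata
PSMD2: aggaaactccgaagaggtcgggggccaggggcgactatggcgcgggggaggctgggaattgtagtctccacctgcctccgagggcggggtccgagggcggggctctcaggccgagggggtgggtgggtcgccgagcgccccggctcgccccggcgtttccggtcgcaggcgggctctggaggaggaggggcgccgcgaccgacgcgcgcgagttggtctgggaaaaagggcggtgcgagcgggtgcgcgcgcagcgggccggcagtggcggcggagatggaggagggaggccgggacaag
PSMG4: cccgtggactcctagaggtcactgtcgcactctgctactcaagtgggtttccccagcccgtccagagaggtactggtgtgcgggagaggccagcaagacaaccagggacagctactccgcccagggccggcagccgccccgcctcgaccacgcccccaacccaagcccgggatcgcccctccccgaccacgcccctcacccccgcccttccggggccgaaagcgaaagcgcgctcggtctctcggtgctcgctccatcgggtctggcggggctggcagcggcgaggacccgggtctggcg
The PSMD3 window held 2 matches to each motif, and the PSMC4 window held 1 match to each. The windows of PSMD2 and PSMG4 shown held neither motif, while a further RefSeq start of PSMD2, at chr3:184300331-184300630, held 1 match to TTCNNNGAA. Over the whole table, TGACNNNGC was present in 14 of 46 proteasome entries (30.4%) and in 13.3% of 35116 promoters of the same length. TTCNNNGAA was present in 6 entries (13%), against 7.66% of all promoters. Letters of paired heat shock units, TTCNNGAA, were present in 3 entries (6.52%), against 7.74%, and the inverted form GAANNTTC in 0, against 6.77%. A full glucocorticoid response element, searched as GNACA, 3 free bases and TGTNC, was in 0 of 46 entries, against 0.39% of all promoters. These motifs can overlap, several entries belong to 1 gene for 7 genes, and a match is a run of letters, not a measured binding site. Of the 14 genes with TGACNNNGC, those called higher (defined below) with both compounds against DEX were PSMC4, PSMC5 and PSMD3. Those not called were PSMA4, PSMB3, PSMD1, PSMD12, PSMD5, PSMD9, PSME1, PSME2, PSME4, PSMG1 and PSMG2. Of the genes with TTCNNNGAA, PSMC4, PSMD2 and PSMD3 were called higher there, and PSMA2, PSMB5 and PSME3 were not called. Of all 44 proteasome genes, 14 (31.8%) were called higher in this comparison. A link between motifs and calls was not tested.

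Library totals ran over 26280158 to 35758236 counts with both compounds, 25577213 to 28864061 with SH4-54, 26040956 to 29426776 with DEX and 28439725 to 31552360 with no drug. Markers listed as present in the line were found, with vimentin (VIM) at group means of 853 to 1320 CPM (counts scaled to a common library size). Of 5 genes listed as low or absent, the oestrogen receptor gene ESR1 reached at most 0.233 CPM in a well. Group means of PGR and CLDN3 were at most 0.366 and 1.29 CPM. The other listed genes were not absent: EPCAM had group means of 18.2 to 22.6 CPM and CDH1 of 8.06 to 14.2 CPM. One library stood apart: the second well with both compounds had 483 CPM of HSPA6, a strictly stress-induced heat shock gene, against 150 and 156 CPM in the other wells of its group. HSPA6 had 19.4 to 27.1 CPM with SH4-54, 0.232 to 0.641 with DEX and 0.265 to 0.501 with no drug. That same well was the highest of its group in 26 of the 44 proteasome genes and the third well the lowest in 28. Among the 17 genes of the 19S particle these counts were 14 and 14. Results with both compounds are therefore also given without the second well. In the no-drug group, the first well was the lowest in 36 of 44 genes and the third well the highest in 26. The second SH4-54 well was likewise the highest of its group in 26 of 44 genes. Among the 17 genes of the 19S particle, the third no-drug well was the highest in 13 and the second SH4-54 well in 11. A link between HSPA6 and the order of the wells was not tested.

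All 44 proteasome genes entered the tests, which ran over 14184 genes. A gene was called when its adjusted p (edgeR's quasi-likelihood test, Benjamini-Hochberg over all genes tested) was below 0.05. Log2 fold changes carry ± their standard error (SE), and CPM values ± the SD over 3 wells. The proteasome genes were measured more tightly than most genes: the median SE of their log2 fold change was 0.0365 for DEX against no drug, against 0.0636 over all genes tested. A smaller difference is therefore called among them than among a typical gene, and shares called are read with that in mind.

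Adding SH4-54 to DEX raised a part of the proteasome genes, most of them in the 19S cap. With both compounds, 14 of 44 genes were higher and 2 lower than with DEX alone. Over all genes tested in this comparison, 13% were called higher and 13.5% lower, against 31.8% and 4.55% of the proteasome genes. The median log2 fold change of the 44 genes was 0.09, against 0.00 over all genes tested. Changes were small: the greatest was 0.32 on the log2 scale, and 28 genes were not called. In RNA from whole wells, a small change in every cell and a larger one in some of the cells cannot be told apart.

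The 19S ATPases were the class with the highest share called, 4 of 6 (PSMC1, PSMC2, PSMC4 and PSMC5), and all 6 values were above 0. PSMC4 had 177, 188 and 164 CPM with both compounds, against 148, 150 and 152 CPM with DEX. The wells of these groups did not overlap, and the log2 fold change was 0.23 ± 0.0407 (adjusted p = 0.00115). PSMC5 had 153, 163 and 147 CPM with both compounds, against 133, 138 and 138 CPM with DEX, a log2 fold change of 0.18 ± 0.0365 (adjusted p = 0.00251). PSMC1 differed by 0.14 ± 0.0358 (adjusted p = 0.0128) and was not called without the second well with both compounds (adjusted p = 0.0625). PSMC2 differed by 0.12 ± 0.0352 (adjusted p = 0.0218) and was not called without the first or the second well with both compounds or the first or the second DEX well (adjusted p = 0.0799 to 0.0896). PSMC3 at 0.10 ± 0.0374 and PSMC6 at 0.09 ± 0.0364 were not called.

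Of the 11 non-ATPase subunits of the cap, 5 were higher (PSMD2, PSMD3, PSMD6, PSMD11 and PSMD13) and 1 lower (PSMD7). PSMD3, a scaffold subunit of the lid, had 210, 218 and 192 CPM with both compounds, against 163, 163 and 172 CPM with DEX. All 3 wells with both compounds were above all DEX wells, with a log2 fold change of 0.32 ± 0.042 (adjusted p = 0.000141), the greatest rise among the 44 genes. PSMD2, the base subunit that docks ubiquitin receptors and shuttle proteins, had 740, 815 and 675 CPM with both compounds, against 622, 623 and 635 CPM with DEX. Its log2 fold change was 0.25 ± 0.0489 (adjusted p = 0.00231), and the spread with both compounds was wide, 743 ± 69.9 CPM, against 626 ± 7.45 CPM with DEX. PSMD13, a lid subunit, rose by 0.15 ± 0.0339 (adjusted p = 0.00557). PSMD6, also of the lid, rose by 0.11 ± 0.036 (adjusted p = 0.0422), a call lost in 8 of the 12 fits that left out 1 library (adjusted p up to 0.152).

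PSMD11, a lid subunit, had 173, 178 and 173 CPM with both compounds, against 161, 161 and 161 CPM with DEX. Its log2 fold change was 0.12 ± 0.0325 (adjusted p = 0.0139), and without the second well with both compounds it was 0.11, no longer called (adjusted p = 0.0562). PSMD7, the partner of the deubiquitinase in the lid, went the other way: it had 122, 120 and 128 CPM with both compounds, against 130, 139 and 133 CPM with DEX. Its log2 fold change was -0.12 ± 0.0342 (adjusted p = 0.0155). PSMD7 lost its call without the first or the second well with both compounds (adjusted p = 0.0523 and 0.0633) or without the second DEX well (adjusted p = 0.0776).

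PSMD14, the deubiquitinase of the lid, was not called: it had 222, 232 and 213 CPM with both compounds, against 204, 212 and 212 CPM with DEX (0.09 ± 0.0388, adjusted p = 0.116). PSMD12, a lid subunit, had 132, 137 and 131 CPM with both compounds, against 129, 127 and 116 CPM with DEX (0.10 ± 0.039, adjusted p = 0.06). Neither gene was called in any of the comparisons made. PSMD4, a ubiquitin receptor of the cap, was not called either, at 0.11 ± 0.0663.

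In the 20S core, 5 of 14 genes were higher and 0 lower: the alpha subunits PSMA1 and PSMA3 and the beta subunits PSMB1, PSMB2 and PSMB6. PSMA3 had 152, 160 and 154 CPM with both compounds, against 137, 140 and 135 CPM with DEX. The log2 fold change was 0.18 ± 0.0342 (adjusted p = 0.0018). PSMB1, a beta subunit without proteolytic activity, had 249, 254 and 253 CPM with both compounds, against 226, 225 and 228 CPM with DEX, a log2 fold change of 0.15 ± 0.0265 (adjusted p = 0.00094). In both genes the wells were separate and tightly grouped. PSMA1 rose by 0.13 ± 0.0371 (adjusted p = 0.0215) and was not called without the first or the second well with both compounds or the first or the second DEX well (adjusted p = 0.0521 to 0.0898). PSMB6, which carries the caspase-like site, rose by 0.12 ± 0.0362 (adjusted p = 0.0277). PSMB2, without proteolytic activity, rose by 0.10 ± 0.0351 (adjusted p = 0.0491), a call lost in 11 of the 12 fits that left out 1 library (adjusted p up to 0.214).

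**Figure D1:**
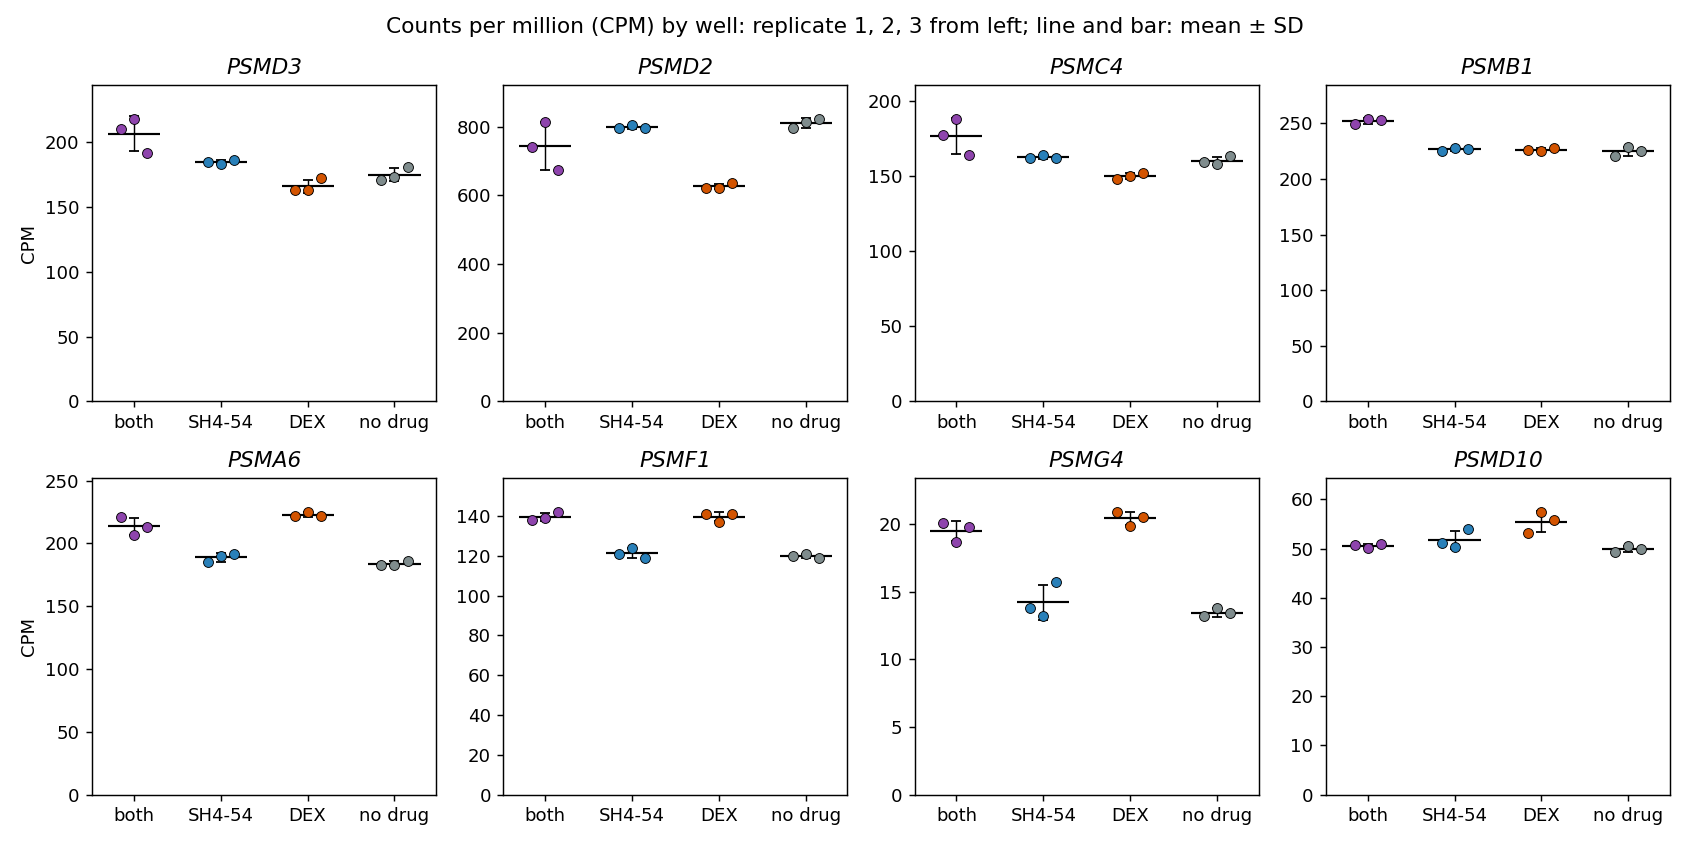
CPM of 8 proteasome genes in each well (points) with the group mean and SD (line and bar), for both compounds, SH4-54, DEX and no drug, on linear axes from 0. PSMD2 lies lowest in the 3 DEX wells (622 to 635 CPM), while PSMG4, PSMF1 and PSMA6 are high in both groups that had DEX.

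Outside the core and cap few genes differed between both compounds and DEX. PSMD10, also known as gankyrin, an assembly chaperone of the cap's base, had 50.7, 50.1 and 50.9 CPM with both compounds, against 53.2, 57.4 and 55.8 CPM with DEX (-0.13 ± 0.0395, adjusted p = 0.0217). It lost its call without the first or the second well with both compounds (adjusted p = 0.0531 and 0.0658) or without the second or the third DEX well (adjusted p = 0.0923 and 0.0588). Of the activators, the inhibitor and the core assembly chaperones, 0 of 9 genes were called. Over all genes tested, 13% were called higher and 13.5% lower, and the difference from so small a set was not tested. PSMF1 had a log2 fold change of 0.00 ± 0.0292 and PSMG4 of -0.06 ± 0.0608 (adjusted p = 0.469).

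The count of genes higher with both compounds than with DEX depended on single wells with both compounds. It was 9 without the first, 7 without the second and 20 without the third. The share called higher over all genes moved too, to 9.45% without the first, 7.44% without the second and 14.1% without the third. The count of lower genes was 0 without the first or the second well with both compounds or without the second DEX well, and 1 without the third DEX well. Without the second well with both compounds, PSMD3 (0.28, adjusted p = 0.000571), PSMC4 (0.18, adjusted p = 0.00442), PSMD2 (0.17, adjusted p = 0.00577), PSMB1 (0.15, adjusted p = 0.00373), PSMA3 (0.16, adjusted p = 0.00929), PSMC5 (0.14, adjusted p = 0.0109) and PSMD13 (0.12, adjusted p = 0.0281) were still called. PSMB6 was not called without either the first (adjusted p = 0.122) or the second well with both compounds (adjusted p = 0.0799), nor without the first, second or the third DEX well (adjusted p = 0.0871, 0.0719 and 0.0551).

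DEX alone left most proteasome genes without a call. With DEX, 7 of 44 genes were higher and 5 lower than with no drug, 15.9% and 11.4%. Over all genes tested, 21.9% were called higher and 23.2% lower, and the difference between these shares was not tested. The lower count ranged over 2 to 7 when single libraries were left out. The members' median log2 fold change was 0.00, against -0.01 over all genes tested. The 7 higher genes were PSMA5, PSMA6, PSMD10, PSME3, PSMF1, PSMG3 and PSMG4, and the 5 lower were PSMC1, PSMC5, PSMD1, PSMD2 and PSME4.

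In the 19S particle, 4 of 17 genes fell with DEX (23.5%, against 23.2% of all genes tested) and 0 rose. Of the 17 values, 16 were below 0, some of them by very little, as PSMD13 at -0.00044 ± 0.034, and the median was -0.07. PSMD2 had 622, 623 and 635 CPM with DEX, against 795, 815 and 823 CPM with no drug. It had the greatest fall among the 44 genes, -0.37 ± 0.0489 on the log2 scale (adjusted p = 1.82e-05), with a wide gap between the wells of the groups. PSMC5 had 133, 138 and 138 CPM with DEX, against 153, 151 and 151 CPM with no drug (-0.16 ± 0.0364, adjusted p = 0.00264). PSMC1 differed by -0.11 ± 0.0358 (adjusted p = 0.0261), and its adjusted p was 0.0662 to 0.0838 without the first or the third DEX well or the second or the third no-drug well. PSMD1, a large base scaffold, differed by -0.09 ± 0.0286 (adjusted p = 0.0182), and its adjusted p was 0.0555 to 0.0959 without the first DEX well or the second or the third no-drug well. PSMC4, at 148, 150 and 152 CPM with DEX, against 159, 158 and 163 CPM with no drug, was lower in every well and was not called (-0.09 ± 0.0407, adjusted p = 0.0797). The values of this comparison and of both compounds against DEX share the DEX wells, so a low DEX value enters both with opposite signs.

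PSMG4, an assembly chaperone that pairs with the PSMG3 product to order the alpha ring, had the greatest rise with DEX. It had 20.9, 19.9 and 20.5 CPM with DEX, against 13.2, 13.8 and 13.4 CPM with no drug, a log2 fold change of 0.60 ± 0.0627 (adjusted p = 1.65e-06). PSMG3 rose by 0.17 ± 0.0423 (adjusted p = 0.0037), while PSMG1 at 0.05 ± 0.0454 and PSMG2 at 0.04 ± 0.0365 were not called. So the partners PSMG3 and PSMG4 were called and the other chaperone pair, PSMG1 and PSMG2, was not; the difference between the pairs was not tested. PSMG1 had 75.6, 82.2 and 76.5 CPM with DEX, against 72.4, 75.2 and 78.1 CPM with no drug, and these wells overlap.

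Among the alpha subunits, PSMA6 had 222, 225 and 222 CPM with DEX, against 183, 183 and 186 CPM with no drug. This was a log2 fold change of 0.28 ± 0.0304 (adjusted p = 2.64e-06), with separate groups. PSMA5 had 272, 273 and 280 CPM with DEX, against 237, 241 and 247 CPM with no drug (0.18 ± 0.0341, adjusted p = 0.000449). The other 5 alpha genes were between 0.00 and 0.04, and 0 of 7 beta genes were called. PSMF1, named PI31 and an inhibitor of the core in vitro, had 141, 137 and 141 CPM with DEX, against 120, 121 and 119 CPM with no drug (0.22 ± 0.0293, adjusted p = 2.33e-05). PSMD10 had 53.2, 57.4 and 55.8 CPM with DEX, against 49.3, 50.6 and 49.9 CPM with no drug (0.15 ± 0.0395, adjusted p = 0.0054).

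Of the 4 activator genes, 1 rose and 1 fell with DEX, 25% each. These shares are near those over all genes tested, 21.9% higher and 23.2% lower. PSME3, the nuclear activator, rose by 0.13 ± 0.0438 (adjusted p = 0.0241), and was not called without the first or the second DEX well or the second or the third no-drug well (adjusted p = 0.055 to 0.0846). PSME4, the large activator PA200, had 75.4, 63 and 67.8 CPM with DEX, against 77.1, 83 and 82.7 CPM with no drug (-0.24 ± 0.0854, adjusted p = 0.0351). That call was lost without the second or the third DEX well (adjusted p = 0.156 and 0.0937) or without the second or the third no-drug well (adjusted p = 0.102 and 0.0949). The interferon-inducible activator pair was not called: PSME1 had 129, 132 and 131 CPM with DEX, against 130, 130 and 125 CPM with no drug, and PSME2 had 99.7, 103 and 102 CPM with DEX, against 106, 106 and 109 CPM with no drug (-0.08 ± 0.0365, adjusted p = 0.104). The count of 5 lower genes was 3 without the first or the third DEX well or the second no-drug well, and 2 without the third no-drug well.

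SH4-54 alone gave no call. Of 44 genes, 0 were higher and 0 lower than with no drug by edgeR's test, and 0 by DESeq2's Wald test; the background was 0.268% called higher and 0.331% lower. At an unadjusted p below 0.05 there were 2 genes (4.55%), against 13.1% of all genes tested. These 2 were PSMA3, at 0.11 ± 0.0342 (adjusted p = 0.183), and PSME4, at 0.19 ± 0.0844 (adjusted p = 0.36). PSMA3 had 138, 144 and 149 CPM with SH4-54, against 131, 135 and 134 CPM with no drug, and all SH4-54 wells were higher. PSME4 had 108, 86 and 82.1 CPM with SH4-54, against 77.1, 83 and 82.7 CPM with no drug, where 1 well lies far above the others and the groups overlap. All 44 log2 fold changes lay between -0.07 and 0.19.

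**Figure D2:**
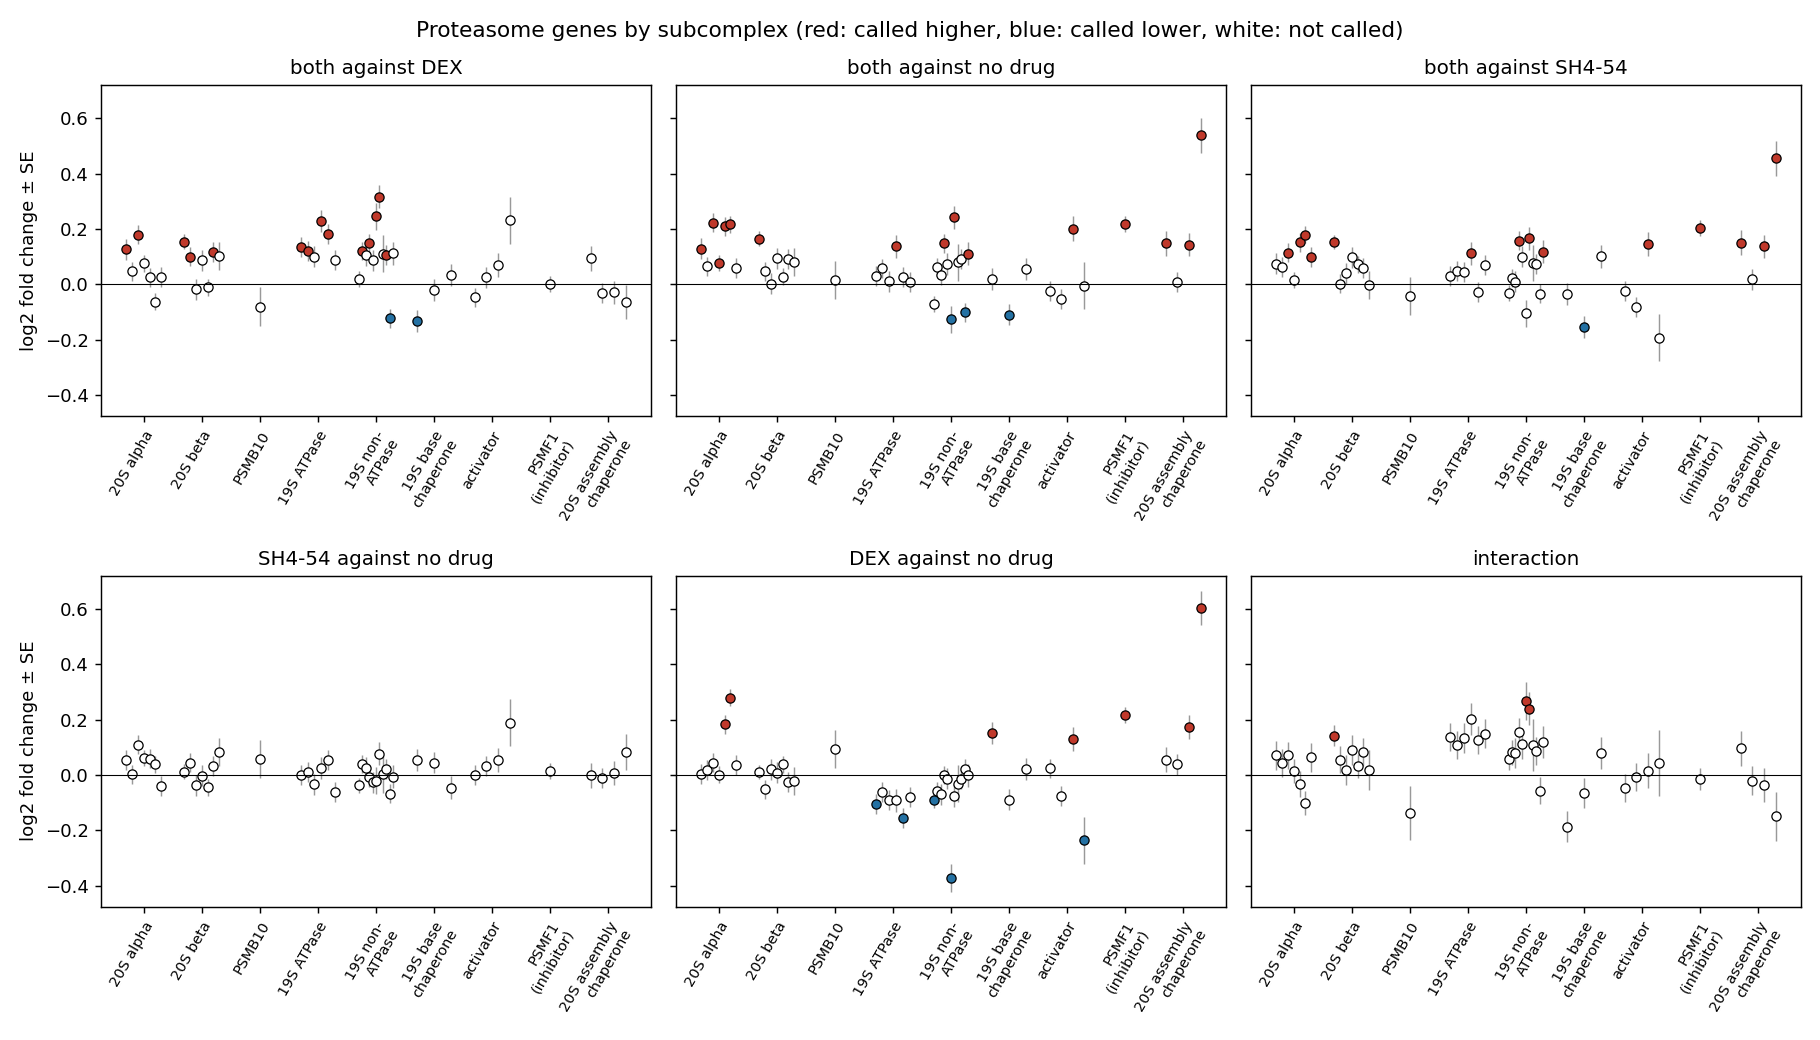
Log2 fold change (± SE) of each of the 44 proteasome genes by subcomplex in the 6 comparisons, red where called higher, blue where called lower and white where not called at an adjusted p below 0.05. Genes of the 19S particle lie mostly above 0 for both compounds against DEX (16 of 17) and below 0 for DEX against no drug (16 of 17), and values for SH4-54 against no drug stay between -0.07 and 0.19.

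Both compounds together left 15 of 44 genes higher and 3 lower than no drug, 34.1% and 6.82%, against 21.1% and 21.6% of all genes tested. Higher genes were found in several classes: 5 of 7 alpha genes (PSMA1, PSMA3, PSMA4, PSMA5 and PSMA6), 3 of 4 core assembly chaperones, PSMF1 and PSME3 were higher. The cap gave PSMC4, PSMD3, PSMD8 and PSMD13 as higher and PSMD2 and PSMD7 as lower, the beta ring PSMB1 as higher, and the base chaperones PSMD5 as lower. The count of higher genes was 22 without the third well with both compounds, and between 11 and 15 without each of the others.

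PSMG4 had 20.1, 18.7 and 19.8 CPM with both compounds, against 13.2, 13.8 and 13.4 CPM with no drug, a log2 fold change of 0.54 ± 0.0626 (adjusted p = 6.49e-06). PSMD3 had 210, 218 and 192 CPM with both compounds, against 171, 173 and 181 CPM with no drug (0.24 ± 0.0418, adjusted p = 0.000276). Both genes were higher in all 3 wells with both compounds than in any no-drug well. PSMA3 had 152, 160 and 154 CPM with both compounds, against 131, 135 and 134 CPM with no drug (0.22 ± 0.0342, adjusted p = 9.64e-05). PSMF1 had 138, 139 and 142 CPM with both compounds, against 120, 121 and 119 CPM with no drug (0.22 ± 0.0293, adjusted p = 2.64e-05). PSMA6, at 221, 207 and 213 CPM with both compounds, differed by 0.22 ± 0.0303 (adjusted p = 4.09e-05) from its no-drug values given above.

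PSMD2 with both compounds stayed below no drug: 740, 815 and 675 CPM, against 795, 815 and 823 CPM. The second well reached the no-drug values, and the log2 fold change was -0.13 ± 0.0488 (adjusted p = 0.0491). That call was fragile. It was -0.20 without the second well with both compounds (adjusted p = 0.000705) and -0.06 without the third (adjusted p = 0.18), and the adjusted p was 0.0526 to 0.12 without each other well. PSMD7 had 122, 120 and 128 CPM with both compounds, against 132, 132 and 132 CPM with no drug (-0.10 ± 0.0341, adjusted p = 0.0265); without the first or the second well with both compounds or any no-drug well the adjusted p was 0.0522 to 0.09. PSMD5, an assembly chaperone of the base, had 85.5, 79.7 and 84.3 CPM with both compounds, against 88.6, 90 and 90.7 CPM with no drug (-0.11 ± 0.0388, adjusted p = 0.0324); its adjusted p was 0.13 without the second well with both compounds and 0.0514, 0.0906 and 0.0921 without the first, second and the third no-drug well. The count of 3 lower genes was 1 without the first or the second well with both compounds or the first no-drug well, 0 without the second or the third no-drug well, and 2 without each of the other 7 libraries.

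PSMG1, a core assembly chaperone, had 84.9, 87.3 and 78.2 CPM with both compounds, against 72.4, 75.2 and 78.1 CPM with no drug (0.15 ± 0.0452, adjusted p = 0.0152). It was not called without the first (adjusted p = 0.0535) or second well with both compounds (adjusted p = 0.0691) or the first no-drug well (adjusted p = 0.0775). PSMC4 differed by 0.14 ± 0.0405 (adjusted p = 0.0133) and was not called without the second well with both compounds (0.09, adjusted p = 0.0645) or the second no-drug well (adjusted p = 0.0552). PSMB1 differed by 0.16 ± 0.0264 (adjusted p = 0.000146). The calls of PSMA4 (0.08 ± 0.0296, adjusted p = 0.0485) and PSMD8 (0.11 ± 0.0413, adjusted p = 0.0428) were lost in 10 and 7 of the 12 fits that left out 1 library, with an adjusted p of up to 0.143 for PSMA4 and 0.169 for PSMD8. PSMA1 (0.13 ± 0.0371, adjusted p = 0.0111) was not called without the first no-drug well (adjusted p = 0.0616).

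Set against SH4-54 alone, both compounds left 14 genes higher and 1 lower, 31.8% and 2.27%, against 20.1% and 20.3% of all genes tested. PSMG4 had 20.1, 18.7 and 19.8 CPM with both compounds, against 13.8, 13.2 and 15.7 CPM with SH4-54 (0.45 ± 0.0629, adjusted p = 4.28e-05). PSMF1 had 138, 139 and 142 CPM with both compounds, against 121, 124 and 119 CPM with SH4-54 (0.20 ± 0.0293, adjusted p = 6.29e-05). PSMA6 had 221, 207 and 213 CPM with both compounds, against 185, 190 and 192 CPM with SH4-54 (0.18 ± 0.0304, adjusted p = 0.000275). The wells of all 3 genes were separate, as they were for DEX against no drug. The lower gene was PSMD5, at 85.5, 79.7 and 84.3 CPM with both compounds, against 98, 90.2 and 89.6 CPM with SH4-54 (-0.15 ± 0.0389, adjusted p = 0.00528).

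PSMB1 was higher with both compounds than with SH4-54 by 0.15 ± 0.0265 (adjusted p = 0.000313), and PSMD3 by 0.17 ± 0.0419 (adjusted p = 0.00563). PSMA3 differed by 0.11 ± 0.0342 (adjusted p = 0.0151), and by 0.09 without the second well with both compounds (adjusted p = 0.0565) or the first SH4-54 well (adjusted p = 0.0702). PSMG1 differed by 0.15 ± 0.0454 (adjusted p = 0.0159) and was not called without the first or the second well with both compounds (adjusted p = 0.056 and 0.0688). PSMC4, at 0.11 ± 0.0406 (adjusted p = 0.0402), was still called without the third well with both compounds, the first DEX well or the third no-drug well, and had an adjusted p of 0.0511 to 0.187 without each of the other 9 libraries. The remaining higher genes were PSMA5, PSMA7, PSMD8, PSMD13, PSME3 and PSMG3. Of these, PSMA5 (0.15 ± 0.0341, adjusted p = 0.00257) and PSMD13 (0.16 ± 0.034, adjusted p = 0.0019) were called in every fit that left out 1 library, while PSMA7 (0.10 ± 0.0363, adjusted p = 0.0421) lost its call in 8 of these 12 fits, PSMD8 in 4, PSME3 in 3 and PSMG3 in 3. The count of 14 higher genes was 9 without the first well with both compounds or the first or the third SH4-54 well, 8 without the second well with both compounds and 20 without the third. The count of 1 lower gene was 2 without the second well with both compounds or the first or the third SH4-54 well.

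Whether SH4-54 acted differently with and without DEX was tested by the interaction, the change with both compounds against DEX minus the change with SH4-54 against no drug. Of 44 genes, 3 had a positive interaction and 0 a negative one, 6.82%, against 2.44% and 1.46% of all genes tested. These were PSMD2 (0.27 ± 0.069, adjusted p = 0.0459), PSMD3 (0.24 ± 0.0593, adjusted p = 0.0381) and PSMB1 (0.14 ± 0.0374, adjusted p = 0.0478). For PSMD3, the change with SH4-54 was 0.32 in the presence of DEX and 0.08 ± 0.0419 in its absence. For PSMD2 these were 0.25 and -0.02 ± 0.0488, and for PSMB1 they were 0.15 and 0.01 ± 0.0265. All 3 are close to the threshold: the count of positive interactions was 0 in 11 of the 12 fits that left out 1 well. It was 6 without the third well with both compounds, where PSMD2 and PSMD3 were called and PSMB1 was not. The share of all genes tested with a positive interaction rose too, to 5.8% without that well, and was 0.939 to 2.1% in the other 11 fits. PSMC4 (0.20 ± 0.0575, adjusted p = 0.0625) and PSMD13 (0.16 ± 0.048, adjusted p = 0.0795) were not called, nor was PSMD10 (-0.19 ± 0.056, adjusted p = 0.0748).

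The CPM of each subcomplex was also summed in each well. The 6 ATPase genes summed to 1338 ± 62.8 CPM with both compounds, 1296 ± 13.6 with SH4-54, 1219 ± 17.1 with DEX and 1302 ± 20.6 with no drug. The 11 non-ATPase genes of the cap summed to 2842 ± 142 CPM with both compounds, 2799 ± 36.3 with SH4-54, 2581 ± 29.3 with DEX and 2813 ± 65.7 with no drug. In both classes every DEX well was lower than every well of the other groups. The 7 alpha genes summed to 1755 ± 47.6 CPM with both compounds, 1635 ± 27.5 with SH4-54, 1696 ± 18.8 with DEX and 1606 ± 40.5 with no drug, so that both groups with DEX were higher in every well than both groups without it. The 7 beta genes summed to 1603 ± 55.7 CPM with both compounds, 1526 ± 25.1 with SH4-54, 1523 ± 9.64 with DEX and 1522 ± 39.8 with no drug, and the groups overlapped. These sums follow the most abundant genes and carry no test. All 44 genes took 0.824 to 0.876% of the counts with both compounds, 0.830 to 0.844% with SH4-54, 0.792 to 0.806% with DEX and 0.816 to 0.840% with no drug.

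**Figure D3:**
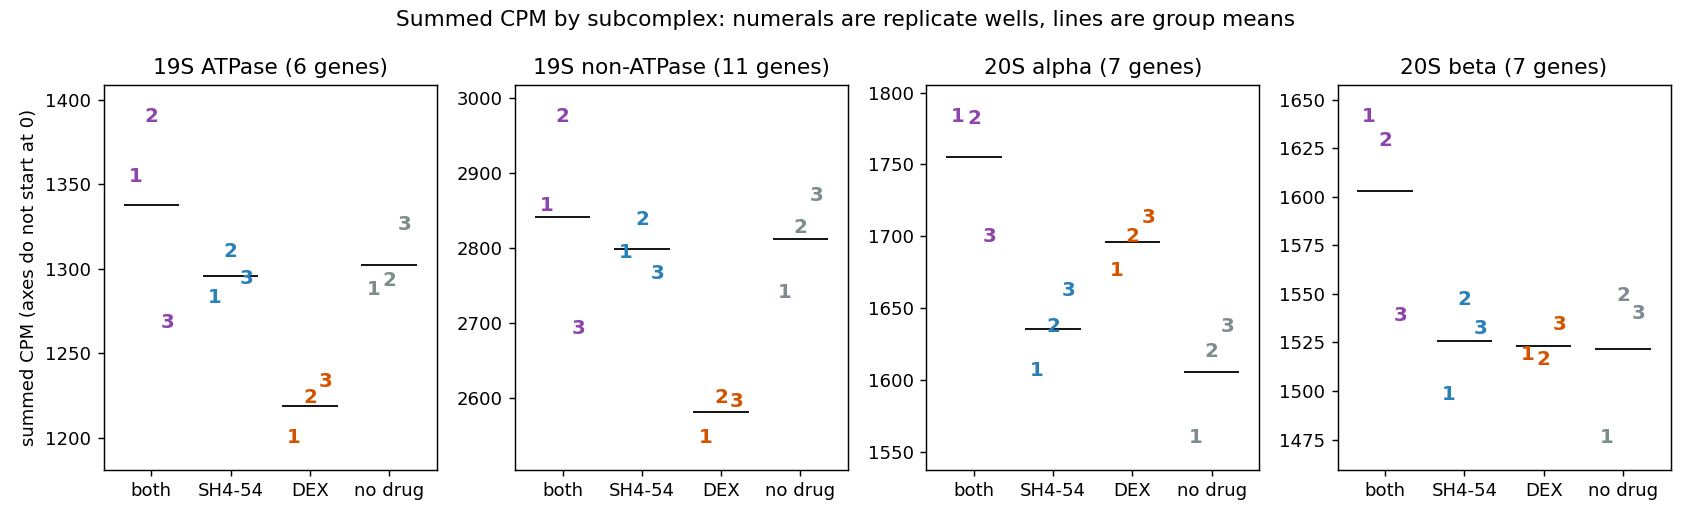
Summed CPM of the ATPase and non-ATPase genes of the cap and of the alpha and beta genes in each well, for both compounds, SH4-54, DEX and no drug. Numerals are the replicate wells and lines the group means, on axes that do not start at 0. The DEX wells are lowest for the ATPase genes (1219 ± 17.1 CPM) and for the non-ATPase genes of the cap (2581 ± 29.3 CPM), and both groups with DEX are highest for the alpha genes.

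The catalytic beta subunits PSMB5, PSMB6 and PSMB7 carry the chymotrypsin-like, caspase-like and trypsin-like sites. PSMB5 had 245, 244 and 234 CPM with both compounds, 222, 233 and 232 with SH4-54, 242, 241 and 245 with DEX and 232, 238 and 239 with no drug, and it was not called in any comparison. PSMB7 had 106, 110 and 95.5 CPM with both compounds, 102, 106 and 103 with SH4-54, 95.9, 95 and 99.1 with DEX and 92.1, 103 and 98.7 with no drug, again with no call. PSMB6, called for both compounds against DEX alone, had 258, 252 and 238 CPM with both compounds, 228, 246 and 244 with SH4-54, 228, 230 and 232 with DEX and 230, 236 and 236 with no drug.

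PSMB10, the inducible counterpart of PSMB7, was low and steady: 22.2, 19.2 and 21.4 CPM with both compounds, 19.2, 23.1 and 22.5 with SH4-54, 21.7, 22 and 22.8 with DEX and 20.8, 21 and 20.4 with no drug. No comparison called it. Log2 fold changes between groups lay between -0.08 and 0.10, and the interaction was -0.14 ± 0.0975. Per kilobase of exon in no-drug wells, on GENCODE v29 lengths, its level was 17 ± 0.25 CPM, against 99.9 ± 5.6 for PSMB7, 161 ± 2.6 for PSMB5 and 268 ± 4 for PSMB6. PSMB8 and PSMB9, the other inducible subunits, cannot be read from this table. They lie in the major histocompatibility region, where the rows of RING1, FLOT1, RXRB and HLA-DMA were also 0 in every library and TAP1 and TAP2 held 1 count each in total. Since rows of genes used by most cells were at 0 there as well, the low counts of PSMB8 and PSMB9 are given as listed, not as expression levels.

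The antisense rows and PSMC3IP are given separately from the proteasome genes. PSMD5-AS1 had 8.78, 8.51 and 9.7 CPM with both compounds and 11.4, 10.9 and 11.4 CPM with DEX (-0.31 ± 0.074, adjusted p = 0.00654). The same DEX wells were above the no-drug wells, which had 9.42, 8.62 and 8.68 CPM (0.33 ± 0.0739, adjusted p = 0.00189). PSMA3-AS1 had 21.8, 19.8 and 20.5 CPM with both compounds, against 22.9, 24.2 and 23.5 CPM with SH4-54 (-0.18 ± 0.0561, adjusted p = 0.0167). That call was lost without the second well with both compounds (adjusted p = 0.0598) or the second SH4-54 well (adjusted p = 0.0597). PSMA3-AS1 had 18.6, 20.4 and 19 CPM with DEX, against 21, 20.9 and 22.9 CPM with no drug (-0.16 ± 0.0567, adjusted p = 0.0344), and this was not called without the first or the third DEX well (adjusted p = 0.123 and 0.102), the third no-drug well (adjusted p = 0.145) or the third well with both compounds (adjusted p = 0.0504). PSMD6-AS2 and PSMG3-AS1 were not called in any comparison. The strand setting of the counting is not stated, so reads of an antisense RNA and of its partner gene cannot be told apart. PSMC3IP had 13.5, 15.5 and 13.5 CPM with both compounds, against 11.6, 10.5 and 11 CPM with DEX (0.36 ± 0.079, adjusted p = 0.00435). The same DEX wells were below the no-drug wells, which had 14.1, 14.8 and 16.2 CPM (-0.45 ± 0.0784, adjusted p = 0.000274).

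Genes of the proteasome that carry other names were followed too. Of 16, 4 were higher with both compounds than with DEX and 0 lower, with ADRM1, TXNL1 and UBQLN1 among the higher ones. Over all genes tested, 13% were called higher there and 13.5% lower. ADRM1, the ubiquitin receptor that docks on the PSMD1 subunit, had 229, 239 and 194 CPM with both compounds, against 172, 163 and 177 CPM with DEX (0.37 ± 0.0613, adjusted p = 0.000654). UBQLN1, a shuttle for ubiquitinated proteins, was not called without the second well with both compounds or the first or the second DEX well (adjusted p = 0.054 to 0.0792). With DEX against no drug, 3 were higher (KIAA0368, PAAF1 and RAD23B) and 1 lower (UBQLN1), of which all but KIAA0368 lost the call in 3 to 6 of the 12 fits that left out 1 library, and with SH4-54 alone 0 of 16 were called. Both compounds gave 4 higher and 1 lower against no drug, and 4 higher and 2 lower against SH4-54. The shares over all genes tested were 21.1% higher and 21.6% lower against no drug, and 20.1% and 20.3% against SH4-54. For DEX against no drug they were 21.9% and 23.2%, and for SH4-54 alone 0.268% and 0.331%. Differences between the list and these shares were not tested. POMP, the maturation factor of the core, was not called for both compounds against DEX (0.05 ± 0.0336, adjusted p = 0.34).

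Genes for regulators of proteasome gene transcription and for the extraction of proteins from membranes differed too. Of 13, DEX alone left 2 higher and 7 lower than no drug, against 21.9% and 23.2% of all genes tested. NFE2L1 had 314, 315 and 323 CPM with DEX, against 286, 278 and 284 CPM with no drug (0.17 ± 0.0265, adjusted p = 0.000112), and NGLY1, the enzyme that removes its sugars, rose by 0.21 ± 0.0414 (adjusted p = 0.000652). NFE2L2, which encodes NRF2, had 96.6, 96.7 and 99.3 CPM with DEX, against 122, 125 and 123 CPM with no drug (-0.34 ± 0.038, adjusted p = 3.57e-06). The small MAF gene MAFF fell by 0.50 with DEX (adjusted p = 3.83e-05). With both compounds, 7 of 13 were higher than with DEX and 1 lower, against 13% and 13.5% of all genes tested. MAFF had 29.1, 33.3 and 28.3 CPM with both compounds, against 20.9, 20 and 23.7 CPM with DEX (0.49 ± 0.0711, adjusted p = 0.000276). NFE2L1 itself was not called there (-0.05 ± 0.0265, adjusted p = 0.17), nor NFE2L2 (0.06 ± 0.0382, adjusted p = 0.286), nor DDI2, the protease that activates NRF1 (-0.03 ± 0.0992, adjusted p = 0.862). With SH4-54 alone 0 of 13 were called, where 0.268% of all genes tested were called higher and 0.331% lower.

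Other stress lists moved in the same wells, and their part in the proteasome changes was not tested. Of 11 heat shock genes, 8 were higher with both compounds than with DEX and 0 lower, against 13% and 13.5% of all genes tested. HSPA6 was the most changed (log2 fold change 9.37, where the DEX wells held 0.232 to 0.641 CPM). Of 6 NRF2 target genes, 6 were higher with both compounds than with DEX, and 5 were lower with DEX than with no drug. The share called lower over all genes for DEX against no drug was 23.2%. NQO1, a quinone reductase, differed by 0.62 ± 0.0331 with both compounds against DEX (adjusted p = 5.84e-08) and by -0.59 ± 0.0331 with DEX against no drug (adjusted p = 2.08e-09). With SH4-54 alone, 4 of 6 NRF2 target genes were higher and 0 lower, against 0.268% and 0.331% of all genes tested. Of 8 antigen processing and interferon genes, 0 were called for both compounds against DEX.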

How the data were processed

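Stranded, ribosomal-RNA-depleted libraries of total RNA were sequenced as single-end reads, per the labels' protocols. The authors deposited raw counts as 1 table of 26364 gene symbols in 12 libraries. Per the submitters' processing notes, featureCounts 1.5.1, HISAT2 2.1.0 and SAMtools were the tools, and hg19 and GRCh37 are the builds listed. The annotation, the strand setting and the treatment of multi-mapping reads are not stated, so the 12 member genes with named pseudogenes (32 in GENCODE v29) are uncertain.

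Groups came from the sample titles; 1 treatment tag spells SH4-54 as SH5-54, and titles were followed. Genes were filtered with filterByExpr and TMM-scaled, and 1 quasi-likelihood model with 4 groups was fitted to all 12 libraries in edgeR 4.0.16 (R 4.3.3, limma 3.58.1), with 8 residual degrees of freedom. DESeq2 1.42.0 served as an alternative. SE was taken as the size of the log2 fold change divided by the root of F. The method was also run on simulated data, and how well it recovered changes as small as those above is not reported here. CPM values use TMM-scaled library sizes. Replicate numbers paired no samples: the 18 correlations of same-numbered deviations ran between -0.0975 and 0.0926. No libraries were duplicates.

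The members and lists were chosen with earlier results of these data known. Per-well values are given for the 3 largest called rises and falls of each comparison and for PSMB5, PSMB6, PSMB7, PSMB8, PSMB9, PSMB10, PSMC4, PSMD11, PSMD12, PSMD14, PSME1, PSME2, PSMF1 and PSMG1. Per-well values of PSMC5, PSMA5, ADRM1, NFE2L1, NFE2L2 and MAFF were chosen after they were seen. Alternatives were leaving out each library, DESeq2's size factors and Wald test, other count filters, a replicate block and the compared groups alone. Some genes of the partner lists are not reported here.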

Additional observations from a re-analysis of the deposited data

Results flagged for a closer look

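The difference between the response to SH4-54 in the presence and in the absence of DEX passed the interaction test in 3 proteasome genes. The interaction on the log2 scale was 0.24 for PSMD3 (edgeR adjusted p = 0.0381), 0.27 for PSMD2 (adjusted p = 0.0459) and 0.14 for PSMB1 (adjusted p = 0.0478), with 3 wells per group. Without each well in turn and under the other alternatives, the adjusted p ran between 0.00234 and 0.109 for PSMD3, between 0.00115 and 0.112 for PSMD2 and between 0.0333 and 0.126 for PSMB1.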

How the results depend on the processing

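Of 70 calls on the 49 members over all comparisons, 37 held under every alternative, 33 were lost under at least 1, and 0 reversed direction. With each library left out in turn, the count of genes higher with both compounds than with DEX ran between 7 and 20 (lower: 0 and 2), with both compounds than with no drug between 11 and 22 (lower: 0 and 2), and with both compounds than with SH4-54 between 8 and 20 (lower: 1 and 2). For DEX against no drug it ran between 6 and 7 (lower: 2 and 7), for the interaction between 0 and 6 (negative: 0 and 1), and it was 0 throughout for SH4-54 against no drug. Fitted on the compared groups alone, both compounds against DEX gave 0 lower genes, DEX against no drug 8 lower and both compounds against SH4-54 8 higher. With no count filter, both compounds against SH4-54 gave 3 lower genes. The interaction gave 1 higher gene with DESeq2's size factors and 0 with the replicate block, where the adjusted p was 0.0656 for PSMD3, 0.0563 for PSMD2 and 0.0799 for PSMB1. The block also ended the calls of PSMC4 and PSMA7 for both compounds against SH4-54 (adjusted p = 0.0565 and 0.0613), of PSMB2 and PSMD6 against DEX (0.0591 and 0.0521) and of PSMA4 against no drug (0.0593), and no other call on the members. The replicate numbers share no source in the labels. The cause of these shifts was not tested. No fit on the compared groups alone exists for the interaction. Scaling by DESeq2's size factors moved the median log2 fold change of all genes by -0.00935 to 0.00898. With 3 wells per group, the median SE of the proteasome genes was 0.0365 for both compounds against DEX and 0.0516 for the interaction, which limits the size of change that could be called.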
